A study of Rattus norvegicus with 28 samples.

Results

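The Nr4a family of orphan nuclear receptors was followed in poly(A) RNA sequencing of rat orbitofrontal cortex, which helps to weigh rewards and the cues that announce them. Its members are Nr4a1 (also called Nur77, ENSRNOG00000007607), Nr4a2 (Nurr1, ENSRNOG00000005600) and Nr4a3 (Nor-1, ENSRNOG00000005964), chosen by their Ensembl identifiers, and all 3 were found among the 26405 gene rows of every file and passed the filter on low counts. Sprague Dawley rats had self-administered methamphetamine (meth) or saline, which served as the control, and were taken from the home cage for tissue punches at withdrawal day 2 or day 35. The 4 groups (day 2 saline, day 2 meth, day 35 saline and day 35 meth) held 4 libraries each, and every library pooled RNA of 2 rats, so a value describes a pool and not an animal. No transgene or deletion is named for any group, and no source used here gives the age or sex of the rats.

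The 3 proteins are transcription factors that need no known natural ligand. They bind a short element called the NBRE as single molecules, and Nr4a1 and Nr4a2 also bind DNA as pairs with the retinoid receptor RXR. Their genes are immediate early genes in many cells: synaptic activity, calcium and cyclic AMP switch on their transcription within a short time and without new protein synthesis, partly through the factor CREB. In brain, Nr4a1 is known for induction by stimulants and by dopamine-blocking drugs in striatum, Nr4a2 for its need in making and keeping midbrain dopamine neurons and for steady expression in subsets of deep cortical and claustral neurons in rodents, and Nr4a3 for induction by activity and by electroconvulsive seizures.

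The promoter windows of Nr4a1 and Nr4a2 are shown because the reference gave windows for these members only. A letter core of the cyclic AMP response element, to which CREB binds, can be read in both. Any link between these windows and the levels below was not tested. The sequences are from the RefSeq annotation of the rat build GRCr8, matched by symbol for 2 of the 3 members, and each runs from 250 bases before to 50 bases after the single start that the table gives. Capitals mark each TGACG core or its reverse complement CGTCA.
Nr4a1, chr7:134259888-134260187, plus strand: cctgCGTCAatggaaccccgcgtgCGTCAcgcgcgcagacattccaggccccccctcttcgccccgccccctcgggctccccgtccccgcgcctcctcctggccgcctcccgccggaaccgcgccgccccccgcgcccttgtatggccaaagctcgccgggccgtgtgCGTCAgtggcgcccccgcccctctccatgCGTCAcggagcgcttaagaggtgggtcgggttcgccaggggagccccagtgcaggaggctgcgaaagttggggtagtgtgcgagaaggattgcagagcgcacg
Nr4a2, chr3:62104838-62105137, minus strand: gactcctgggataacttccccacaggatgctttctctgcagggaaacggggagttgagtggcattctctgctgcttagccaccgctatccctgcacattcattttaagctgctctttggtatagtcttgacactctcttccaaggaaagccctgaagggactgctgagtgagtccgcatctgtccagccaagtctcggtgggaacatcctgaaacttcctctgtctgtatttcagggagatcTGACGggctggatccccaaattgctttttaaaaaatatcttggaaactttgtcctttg
The Nr4a1 window held 4 such cores, whose leftmost bases lay 246, 226, 82 and 53 bases before the start, and the Nr4a2 window held 1, which lay 8 bases before it. Of 33469 rat promoter windows of 300 bases, 21.2% held at least 1 core and 0.236% held 4 or more, on either strand. G and C made up 72.3% of the Nr4a1 window and 48.7% of the Nr4a2 window. The full element TGACGTCA (in 1.83% of all windows), the NBRE AAAGGTCA (1.43%), the AP-1 element TGANTCA (7.33%), the EGR element GCGTGGGCG (0.544%), the CArG box of SRF (1.64%) and the MEF2 site (3.29%) were not read in either window. Both genes have further RefSeq transcripts (4 in all for Nr4a1 and 7 for Nr4a2), and the starts used lay 13 and 11 kb inside the outermost start, so other promoters of these genes are not covered.

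Gene counts per library ran from 20.33 to 48.47 M (M, mega, the SI prefix). They were lowest in day 2 saline (20.33 to 23.54 M) and higher in day 2 meth (24.97 to 37.48), day 35 saline (31.85 to 48.47) and day 35 meth libraries (36.72 to 43.98). Levels below are counts per M (CPM) on TMM-scaled library sizes, which correct for depth but not for gene length, so levels are compared between groups and not between genes. The members had 638 counts or more in every library, and the counting error of the lowest of these values was 3.96%. Genes are paired with no names in the files, so the labelled region was not checked against marker genes. In these bulk samples, fewer cells of a type and less RNA per cell cannot be told apart.

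Nr4a1, the member best known as an early response gene, had its lowest group mean in day 2 meth and its highest in day 35 saline. The 4 day 2 saline libraries (replicates 13 to 16 in order) stood at 101, 44.9, 82.4 and 55.1 CPM, with a mean of 70.8 ± 25.4 (SD, n = 4). The day 2 meth libraries (replicates 1 to 4) stood at 53.9, 62.7, 57.8 and 52.6 CPM, with a mean of 56.7 ± 4.56. Day 2 meth was thus the tightest of the groups for Nr4a1, and all of its libraries lay inside the range of day 2 saline. At day 35 the saline libraries (replicates 9 to 12) stood at 149, 164, 57.7 and 90.6 CPM, with a mean of 115 ± 49.8. The day 35 meth libraries (replicates 5 to 8) stood at 87.4, 145, 48.1 and 82.3 CPM, with a mean of 90.6 ± 40.1. The day 35 groups overlapped each other and both day 2 groups, and the 3 highest libraries of all 16 (saline replicates 9 and 10 and meth replicate 6) were day 35 libraries. The order of means was day 2 meth, day 2 saline, day 35 meth and day 35 saline, and each group overlapped the next one in that order. The highest library stood 3.65-fold above the lowest.

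Nr4a3, a close relative that is also induced by activity, had the same order of group means as Nr4a1. Day 2 saline libraries stood at 38.9, 33.1, 44.3 and 27.0 CPM, with a mean of 35.8 ± 7.46 (SD, n = 4). Day 2 meth libraries stood at 28.7, 28.7, 30.0 and 27.4 CPM, with a mean of 28.7 ± 1.05. The 4 meth pools were thus nearly equal at day 2, with a coefficient of variation of 3.64%, and lay at the lower end of the saline range. Day 35 saline libraries stood at 38.7, 70.5, 45.1 and 37.4 CPM, with a mean of 47.9 ± 15.4. Day 35 meth libraries stood at 52.4, 59.7, 32.2 and 38.7 CPM, with a mean of 45.8 ± 12.6. Each group overlapped the next one in the order of means. Among meth rats, every library of day 35 lay above every library of day 2, while both day 35 groups overlapped day 2 saline. In meth rats 5% of the 15413 genes tested stood wholly higher at day 35 than at day 2 in this way, and 11.4% did not overlap in either direction.

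Nr4a2 had group means between 92.9 and 106 CPM, while single libraries ran from 56.0 to 139 CPM. Day 2 saline libraries stood at 56.0, 125, 112 and 118 CPM, with a mean of 103 ± 31.6 (SD, n = 4). Day 2 meth libraries stood at 118, 86.3, 97.2 and 70 CPM, with a mean of 92.9 ± 20.2. Replicate 13 was the lowest of all 16 libraries for Nr4a2, although the same library was the highest of its group for Nr4a1. Day 35 saline libraries stood at 90.9, 139, 100.4 and 74.7 CPM, with a mean of 101 ± 27.4. Day 35 meth libraries stood at 104, 97.2, 115 and 108 CPM, with a mean of 106 ± 7.51. All 4 groups overlapped, and the tight group was here day 35 meth and not day 2 meth. For meth against saline, 0 of the 3 members had groups that did not overlap at day 2 (5.45% of all genes tested) or at day 35 (3.46%), and for day 35 against day 2 in saline rats it was likewise 0 of 3 (3.86%).

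**Figure D1:**
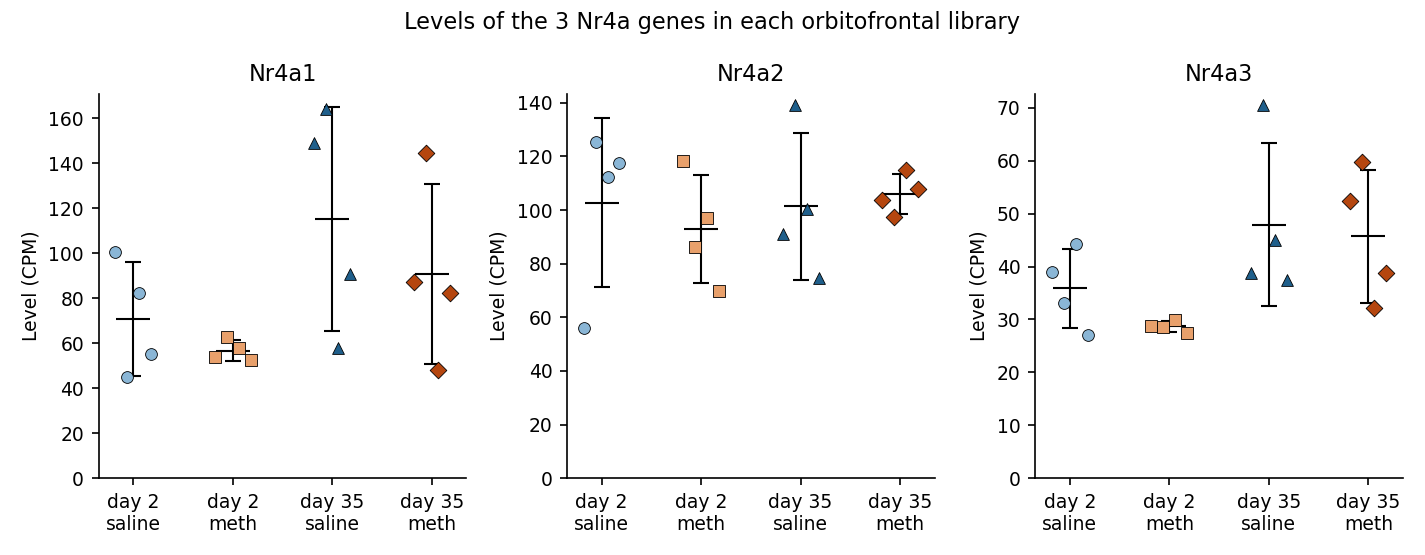
Level (CPM, axis from 0) of Nr4a1, Nr4a2 and Nr4a3 in each of the 16 libraries, by group; points are libraries and bars are the mean ± SD of 4. Nr4a1 and Nr4a3 have their lowest mean and are tightest in day 2 meth (52.6 to 62.7 and 27.4 to 30.0 CPM). The groups overlap for all 3 genes, except that Nr4a3 in day 2 meth lies wholly below both day 35 groups.

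With the 4 groups pooled, the 3 members varied far more between pools of 1 group than most genes of their level. The SD of log2 CPM within groups, pooled over the groups, was 0.548 for Nr4a1, 0.369 for Nr4a2 and 0.331 for Nr4a3. Among the 500 tested genes nearest to each in mean level, the median SD was 0.0551, 0.0523 and 0.0648, the highest SD was 0.367, 0.319 and 0.288, and 0 had a larger SD than the member. These neighbours spanned 6.13 to 6.39, 6.47 to 6.77 and 5.15 to 5.35 log2 CPM. The biological coefficient of variation in the edgeR fit was 36.4% for Nr4a1, 24.3% for Nr4a2 and 22.6% for Nr4a3, against a common value of 6.25%. The counting error quoted above was thus small beside the spread between pools. Over all genes tested, the median SD within a group was 0.104 in day 2 saline, 0.086 in day 2 meth, 0.0918 in day 35 saline and 0.078 in day 35 meth. Nr4a1 and Nr4a3 were tightest in day 2 meth (SD 0.114 and 0.0525), where 27% of genes had their lowest SD, and Nr4a2 in day 35 meth (SD 0.102), where 35.5% did. In day 2 meth the SD of Nr4a3 was thus below the median of all genes in that group. With 4 pools a group these SDs are themselves imprecise, and their difference between groups was not tested.

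**Figure D2:**
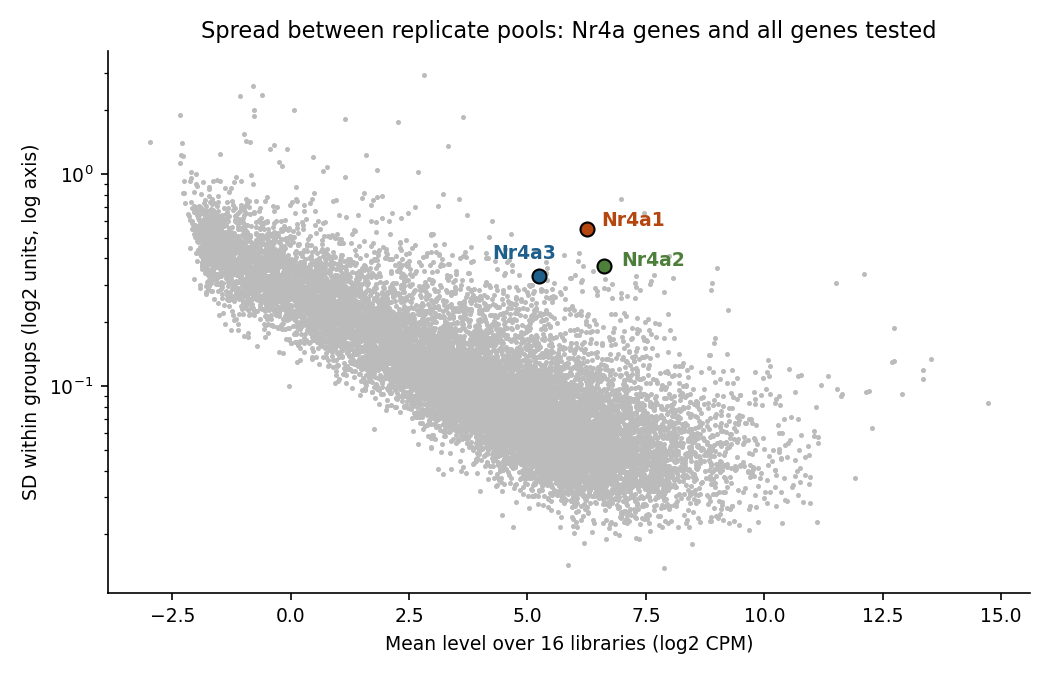
SD of log2 CPM within groups (log axis) against mean level (log2 CPM) over the 16 libraries; each grey point is 1 of 15413 genes tested and the coloured points are the 3 Nr4a genes. All 3 lie at the upper edge of the cloud at their level, Nr4a1 with an SD of 0.548 highest.

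The first comparison asked whether meth and saline rats differed at each withdrawal day. At day 2 the 3 members had lower means in meth than in saline rats, but 0 of the 3 passed an adjusted p of 0.05 in edgeR's quasi-likelihood test, in DESeq2 or in limma-voom, and 0 had an unadjusted p under 0.05 in the edgeR fit of all 4 groups. Over all genes, edgeR called 0.11% of those tested and 10.5% had an unadjusted p under 0.05. The main edgeR fit used 1 estimate of the spread per gene, shared by all 4 groups. In an edgeR fit of the day 2 libraries alone, Nr4a3 had a log2 fold change of -0.32 with an SE of 0.136. Its unadjusted p in that edgeR fit was 0.0461 (adjusted 0.53). The log2 fold change was -0.31 for Nr4a1 (SE 0.390, edgeR adjusted p = 0.84), with a 95% confidence interval from -1.16 to 0.53. Nr4a3 had one of -0.32 (SE 0.247, edgeR adjusted p = 0.71, interval -0.86 to 0.21), and Nr4a2 one of -0.15 (SE 0.248, edgeR adjusted p = 0.88, interval -0.69 to 0.39). On the linear scale the Nr4a1 interval ran from 0.447 to 1.45 times the saline level. Single libraries moved these values: Nr4a1 stood at -0.10 without day 2 saline replicate 13 and at -0.48 without day 2 saline replicate 14, and Nr4a2 at -0.36 without day 2 saline replicate 13 and at -0.04 without day 2 meth replicate 4. For Nr4a3 the value ran from -0.44 without day 2 saline replicate 16 to -0.20 without day 2 saline replicate 15. The median of the 3 was -0.31, against 0.003 over all genes tested.

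At day 35 the members were again not separated by drug. Again 0 of 3 were called or had an unadjusted p under 0.05 in edgeR. Over all genes edgeR called 0% (902 genes, or 5.85%, had an unadjusted p under 0.05), limma-voom called 0 and DESeq2 called 5. For Nr4a1 the log2 fold change was -0.35 (SE 0.369, edgeR adjusted p = 0.96, interval -1.15 to 0.45), and it stood at -0.14 without day 35 saline replicate 10 and at -0.67 without day 35 meth replicate 6. Nr4a2 (0.07, SE 0.243) and Nr4a3 (-0.06, SE 0.229) were near 0, with intervals of -0.46 to 0.59 and -0.56 to 0.43 and an edgeR adjusted p of 0.99 each. The sign of these last 2 values depended on single libraries: Nr4a2 stood at -0.05 without day 35 saline replicate 12, and Nr4a3 at 0.18, 0.08 and 0.01 without day 35 saline replicate 10, day 35 meth replicate 7 and day 35 meth replicate 8.

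The difference of the meth effects, day 35 minus day 2, tested whether meth acted differently at the 2 days. It was called for 0 of the 3 members by edgeR, DESeq2 and limma-voom, against 0.136% of all genes called by edgeR. None of the 3 had an unadjusted p under 0.05 in edgeR, against 9.62% of all genes. It was -0.04 for Nr4a1 (SE 0.537, interval -1.20 to 1.13), 0.22 for Nr4a2 (SE 0.347, interval -0.54 to 0.97) and 0.26 for Nr4a3 (SE 0.336, interval -0.47 to 0.99), with edgeR adjusted p of 1, 0.90 and 0.87. For Nr4a1 the interval ran from 0.434 to 2.19 on the linear scale, the widest of the 3. Its sign turned without any of 7 single libraries (day 2 saline replicates 14 and 16, day 2 meth replicate 2, day 35 saline replicates 9 and 10 and day 35 meth replicates 7 and 8), and the value ran from -0.35 without day 35 meth replicate 6 to 0.18 without day 35 saline replicate 10.

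The next comparison asked what differed between the withdrawal days. Nr4a1 and Nr4a3 had higher means at day 35 in both drug groups, and Nr4a2 in meth rats only. Whether Nr4a2 differed from the other members in this was not tested. In meth rats, Nr4a3 was 1.6-fold higher at day 35 (log2 fold change 0.67, SE 0.236, interval 0.16 to 1.19, edgeR unadjusted p = 0.0142), which missed the threshold over all genes (edgeR adjusted p = 0.18), although all 4 libraries of day 35 lay above all 4 of day 2. Nr4a1 had the same log2 fold change with a wider error (0.67, SE 0.379, interval -0.15 to 1.5, edgeR adjusted p = 0.41), and Nr4a2 had 0.19 (SE 0.244, interval -0.34 to 0.72, edgeR adjusted p = 0.75). So 0 of the 3 members were called in meth rats by edgeR, DESeq2 or limma-voom, and 1 had an unadjusted p under 0.05 in edgeR, against 1.83% of all genes called and 16% with an unadjusted p under 0.05. All 3 fold changes were positive (median 0.67, against -0.003 over all genes). Of the 282 genes called in meth rats, 213 were lower at day 35, but no member was among the genes called. Of the 1764 genes whose meth groups did not overlap between the days, 771 were higher at day 35. Only 1.63% of genes tested had a larger absolute fold change than Nr4a3 in this comparison, but 7.97% had a smaller or equal p.

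In saline rats Nr4a1 and Nr4a3 again had positive values. The log2 fold change was 0.71 for Nr4a1 (SE 0.381, interval -0.12 to 1.54, edgeR unadjusted p = 0.0865, adjusted 0.64), 0.42 for Nr4a3 (SE 0.240, interval -0.10 to 0.94, edgeR unadjusted p = 0.108, adjusted 0.66) and -0.03 for Nr4a2 (SE 0.247, interval -0.56 to 0.51, edgeR adjusted p = 0.99). edgeR called 0 of the 3 members and 0% of all genes (1338, or 8.68%, had an unadjusted p under 0.05). limma-voom called 0 genes, and DESeq2 called 37 genes and none of the members. Without day 35 saline replicate 10 the value of Nr4a3 was 0.17, and that of Nr4a1 was 0.50. For Nr4a2 the sign turned without any of 5 single libraries (day 2 saline replicates 14, 15 and 16 and day 35 saline replicates 9 and 12), with values of 0.08, 0.02, 0.04, 0.02 and 0.10. The comparisons of days in meth and in saline rats share no libraries.

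Because Nr4a1 and Nr4a3 stood higher at day 35 in both drug groups, the mean of both day 35 groups was also set against that of both day 2 groups, a contrast chosen after the levels had been seen. Nr4a3 was 1.46-fold higher (log2 fold change 0.54, SE 0.168, interval 0.18 to 0.91, edgeR unadjusted p = 0.00685, adjusted 0.14), and Nr4a1 was 1.62-fold higher (0.69, SE 0.269, interval 0.11 to 1.28, edgeR unadjusted p = 0.024, adjusted 0.24). Nr4a2 had 0.08 (SE 0.174, interval -0.29 to 0.46, edgeR adjusted p = 0.88), and its sign turned without day 2 saline replicate 13 (-0.02) or day 35 saline replicate 10 (-0.01). edgeR and limma-voom called 0 of the 3 members, against 1.06% of all genes called by edgeR, while DESeq2 called Nr4a3 (adjusted p = 0.038) and 4.18% of the 11528 genes to which it gave an adjusted p. In edgeR, 0.383% of genes had a larger absolute fold change than Nr4a1 and 0.895% a larger one than Nr4a3. A smaller or equal p was held by 10.1% of genes for Nr4a1 and by 5.04% for Nr4a3. Of all genes tested, 15.2% had an unadjusted p under 0.05 in this edgeR contrast. Depth also differed between the days (20.33 to 37.48 M gene counts at day 2 and 31.85 to 48.47 at day 35), and its part in the result was not tested.

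**Figure D3:**
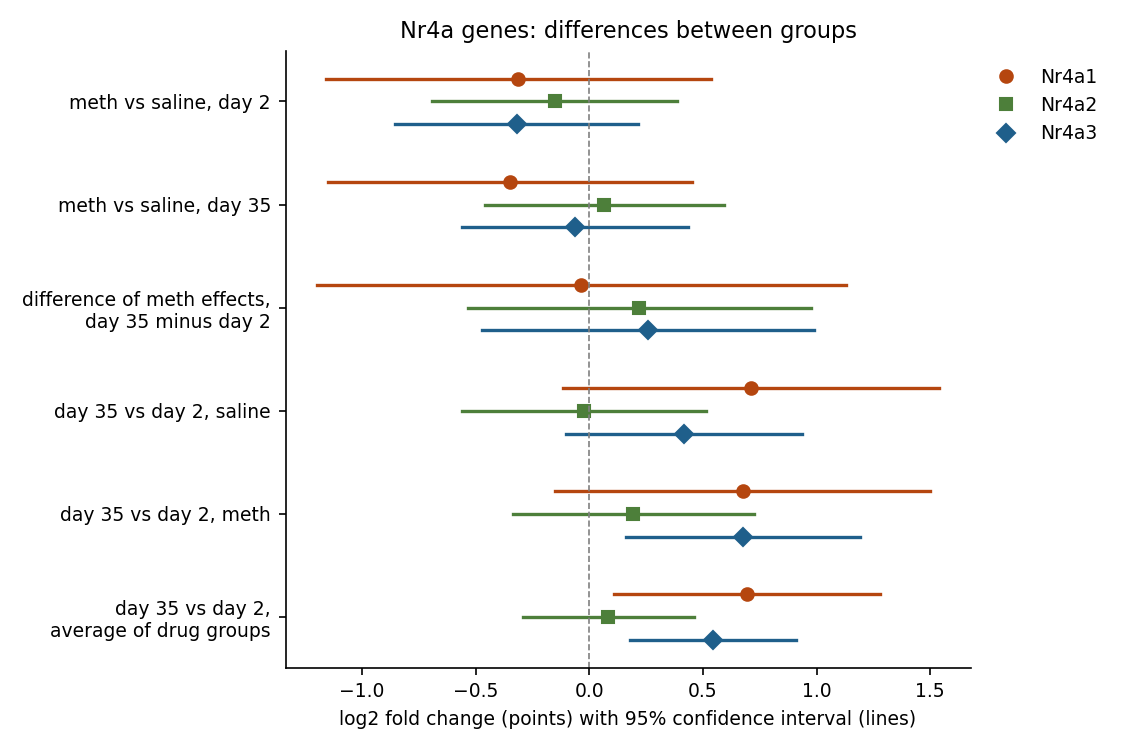
log2 fold changes (points) with 95% confidence intervals (lines) from the edgeR fit, for the 3 Nr4a genes in each comparison; the dashed line marks no difference. The intervals of Nr4a3 in meth rats (0.16 to 1.19) and of Nr4a1 and Nr4a3 in the average over drug groups lie above 0, though no adjusted p over all genes passed in edgeR.

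Whether the 3 genes were high in the same pools was examined across the 16 libraries, for 3 pairs of members on the log2 CPM scale. Nr4a1 and Nr4a3 went together, with a Pearson r of 0.773 (permutation p = 0.00048, adjusted over the 3 pairs 0.0014) and a Spearman rho of 0.679 (permutation p = 0.0047, adjusted 0.014). Without the 2 libraries farthest from the Nr4a1 median (day 35 saline replicates 9 and 10) r was 0.77 (permutation p = 0.0014) and rho 0.64 (p = 0.017, adjusted 0.05). The relation was then read within groups, where r was lower and rho higher than over all libraries, a change that was not tested. For deviations from the group means r was 0.66 (permutation within groups, p = 0.043, adjusted 0.13) and rho 0.715 (p = 0.019, adjusted 0.057), so the within-group relation missed the threshold after adjustment. Each group and each sequencing lane held 4 libraries, too few for an r of its own. Nr4a1 deviated from its group means by 0.26 and 0.24 log2 units on average on lanes 1 and 2 and by -0.34 and -0.16 on lanes 3 and 4. For Nr4a3 these deviations were 0.0305, 0.235, -0.0276 and -0.238 on lanes 1 to 4. With the means of groups and lanes both removed, r was 0.667 between Nr4a1 and Nr4a3.

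Nr4a2 showed no such relation with either. Its r was -0.10 with Nr4a1 (permutation p = 0.72; rho -0.27, p = 0.32) and 0.22 with Nr4a3 (permutation p = 0.42; rho 0.12, p = 0.67), and for deviations from group means -0.23 (p = 0.45 by permutation) and 0.12 (p = 0.68). Adjusted over the 3 pairs, these permutation p-values were 0.63 or higher for r on both scales. Without the 2 libraries farthest from the Nr4a1 median the r with Nr4a1 was -0.38 (permutation p = 0.18; rho -0.54, p = 0.049, adjusted 0.074), and without those farthest from the Nr4a2 median (day 2 saline replicate 13 and day 2 meth replicate 4) the r with Nr4a3 was 0.17 (permutation p = 0.56).

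**Figure D4:**
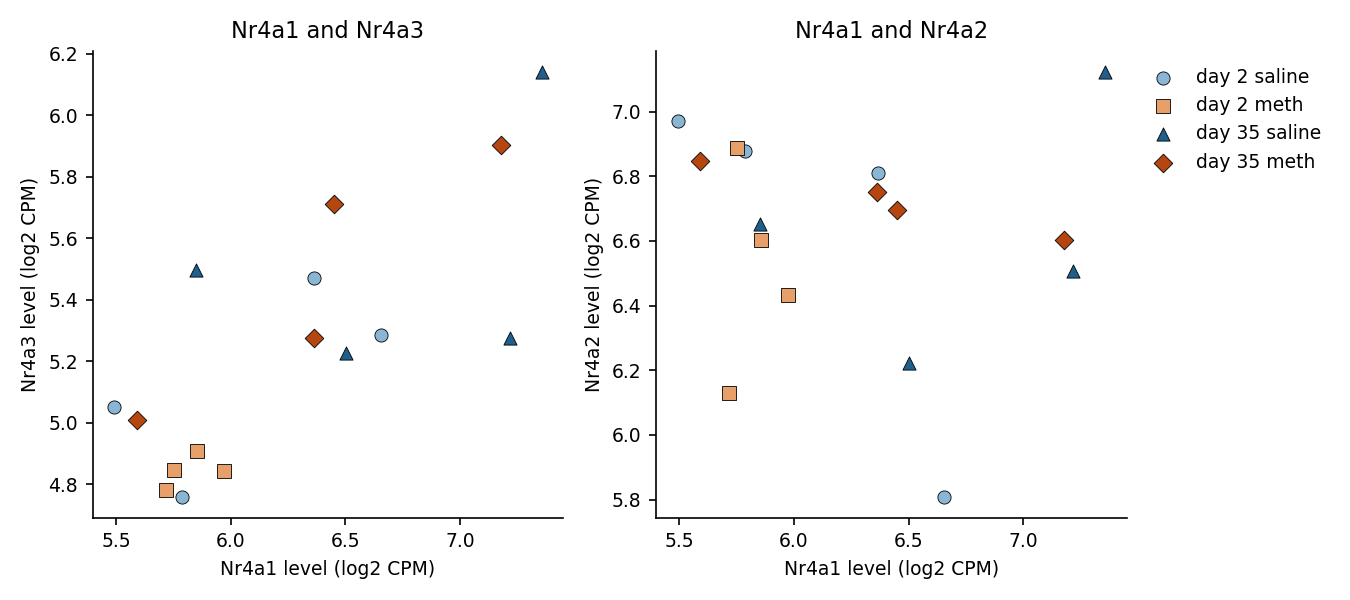
Levels (log2 CPM) of Nr4a3 and of Nr4a2 against Nr4a1; each point is 1 of 16 libraries, coloured by group. Nr4a3 goes up with Nr4a1 (r = 0.773), whereas Nr4a2 shows no trend with it (r = -0.10), and day 2 saline replicate 13 sits lowest for Nr4a2.

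The genes whose pattern over the 16 libraries was most like that of a member were sought among 13560 other genes with a mean of at least 1 CPM, by Pearson r of log2 CPM. For Nr4a1 it was ENSRNOG00000043465 (r = 0.969 over all libraries and 0.966 for deviations from group means), at 123 ± 33.4 CPM in day 2 meth, 157 ± 80.5 in day 2 saline, 242 ± 117 in day 35 meth and 269 ± 112 in day 35 saline (SD, n = 4 each). This is the order of means that Nr4a1 and Nr4a3 had. For Nr4a2 it was ENSRNOG00000000010 (r = 0.970 and 0.977), at 16.8 ± 4.56 CPM in day 2 meth, 18 ± 5.58 in day 35 saline, 19.2 ± 2.41 in day 35 meth and 19.7 ± 6.17 in day 2 saline, with its lowest library, at 10.6 CPM, in the replicate 13 that was also lowest for Nr4a2. Neither identifier was called in any comparison by edgeR (adjusted p of 0.21 or higher). Nr4a3 ranked 83rd among the genes most like Nr4a1, and Nr4a1 ranked 71st for Nr4a3. Nr4a2 ranked 8139th for Nr4a1. An r above 0.8 was found with 58 genes for Nr4a1, 54 for Nr4a2 and 53 for Nr4a3. These values are descriptions of shared libraries, and no p was attached. Both identifiers were picked by r over these same libraries, so a like order of means or lowest library is no independent result. The 2 identifiers carry no name in the sources used here.

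**Figure D5:**
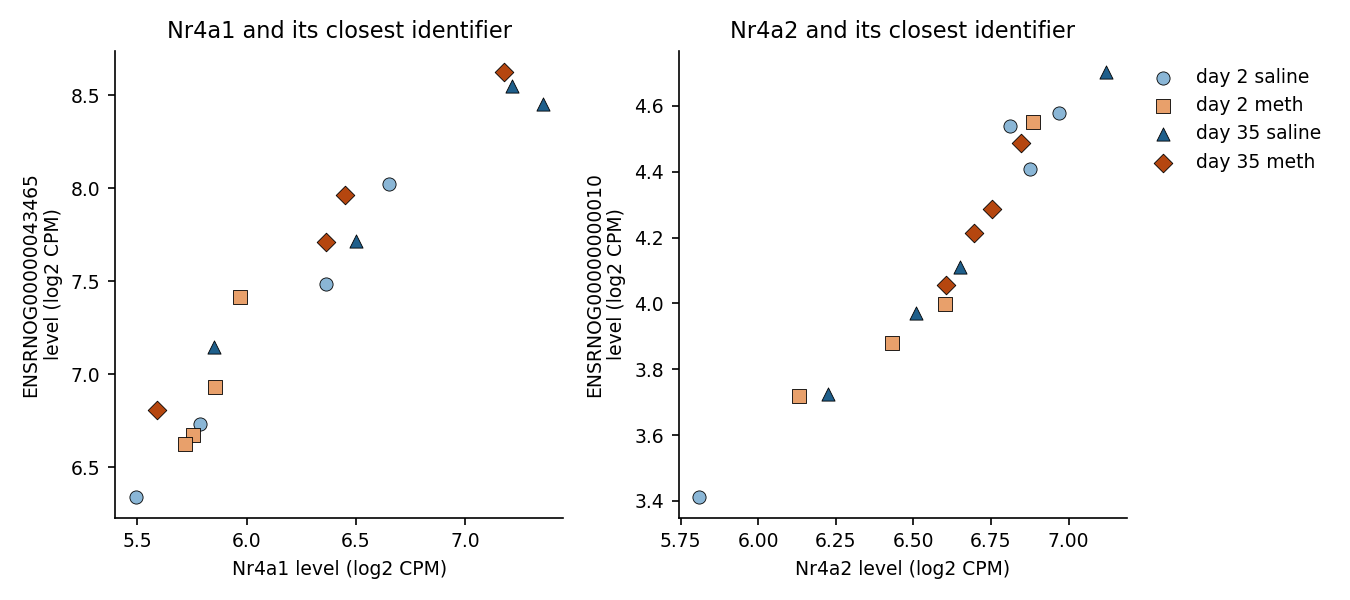
Level (log2 CPM) of the identifier most like Nr4a1 and of the one most like Nr4a2, each against that gene; points are the 16 libraries, coloured by group. Both sets of points lie close to a line (r = 0.969 and 0.970). Day 35 saline replicates 9 and 10 and day 35 meth replicate 6 are at the top for Nr4a1. Groups are mixed below them and throughout for Nr4a2.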

How the data were processed

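The deposited values are raw counts of reads per Ensembl gene, 1 file per library, with no normalization by the authors. Per the submitters' processing notes, TopHat, HTSeq and limma were used with build rn4; no source used here gives versions, annotation release or strand setting, so reads of overlapping or antisense genes cannot be told apart. The 5 HTSeq summary rows (31.13 to 32.61% of reads) entered neither library sizes nor tests. The 16 orbitofrontal libraries were used; 12 central amygdala samples were not analysed here. The days come from the design text, since the labels say short or long.

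All genes kept by filterByExpr (15413) were fitted together in edgeR 4.0.16 (R 4.3.3) with TMM factors (0.985 to 1.018), 4 group means, glmQLFit (robust) and two-sided glmQLFTest, with Benjamini-Hochberg adjustment over all of them and a threshold of 0.05. Standard errors are the fold change over the square root of F. Log2 CPM used a prior count of 2, and permutation tests were two-sided with 100000 draws. Of the fits, only the main edgeR fit was tested on simulated counts, read in the comparison of days in meth rats. Results were recomputed with DESeq2 1.42.0, with voom of limma 3.58.1, with size factors by median ratio, without a filter, with at least 1 CPM required in 4 libraries, with a block for lane, on the compared groups alone and without each library.

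The members and lists were chosen with earlier results of these data known. The 7 gene lists and the cell type markers, given by symbol, could not be run, since 0 of 26405 identifiers matched the RefSeq gene table; the rule for named genes then allowed the 3 members and at most 2 identifiers, those with the highest r with a member. Each lane held 1 library of every group, a pairing given in the labels; deviations of same-lane libraries of other groups correlated by 0.03 on average (24 pairs) and those of other lanes by -0.01 (72 pairs). The chi-square of counts between libraries of a group was at least 5.19 times its degrees of freedom, and no pair was identical, so all were kept. All libraries of a group carry 1 index, so index and group cannot be told apart, and no label ties a library to 1 of the cohorts of rats. Intervals rest on 1 estimate per gene of the spread between pools, shared by all 4 groups, and not on the compared groups alone. With the compared groups fitted alone, the SE between drugs was 0.136 for Nr4a3 at day 2 (0.247 in the main fit). For Nr4a1 at day 35 it was 0.454 (0.369 in the main fit).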

Additional observations from a re-analysis of the deposited data

How the results depend on the processing

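No fold change of a member was called by edgeR under any alternative run, and 1 of 408 member values was called in all: Nr4a3 between the days averaged over drug groups, with DESeq2 (log2 fold change 0.55, adjusted p = 0.038; over the other alternatives up to 0.23). Lane as a replicate block changed no call (Nr4a3 in meth rats 0.65, adjusted p = 0.17). For Nr4a3 between the days in meth rats the adjusted p ranged from 0.087 to 0.37 over alternatives, and for Nr4a1 from 0.29 to 0.73, its log2 fold change from 0.36 to 0.89. The sign turned in 18 of the 408 values, each time with 1 library left out. The ranges without 1 library were -0.054 to 0.256 for Nr4a2 and -0.22 to 0.18 for Nr4a3 between drugs at day 35, -0.23 to 0.10 for Nr4a2 between the days in saline rats, -0.0158 to 0.152 for Nr4a2 averaged over drug groups, and -0.35 to 0.18 for the difference of meth effects in Nr4a1. The r of Nr4a1 and Nr4a3 was 0.66 for deviations from group means (adjusted p = 0.13). The number of genes called for the difference of meth effects was 21, and it was 4 with the lane block, 8 with median-ratio size factors, 9 with the filter at 1 CPM and 9 with limma-voom. DESeq2 called more genes than edgeR throughout (115 against 17 at day 2, 5 against 0 at day 35, 554 against 282 in meth and 37 against 0 in saline rats, 83 against 21 for the difference, 482 against 163 averaged). Without 1 library the edgeR counts ran from 6 to 21, 0 to 1, 104 to 305, 0 to 2, 0 to 17 and 59 to 228 in the same order. The cause of these changes was not tested. Counting error of the members was at most 3.96%; whether depth affects their differences in another way was not tested.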

Other observations

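The ratio of Nr4a1 to Nr4a2 counts within a library, in which gene length cancels between libraries, ran from 0.359 (day 2 saline replicate 14) to 1.80 (day 2 saline replicate 13), both in the same group. Its mean was 0.84 ± 0.658 (SD, n = 4) in day 2 saline, 0.632 ± 0.136 in day 2 meth, 1.15 ± 0.437 in day 35 saline and 0.878 ± 0.447 in day 35 meth libraries, and all groups overlapped. The ratio of Nr4a3 to Nr4a2 was tightest in day 35 saline libraries, at 0.471 ± 0.0397 (range 0.426 to 0.506), although both genes varied there by up to 1.88-fold, and it ran from 0.23 to 0.695 in day 2 saline libraries. The ratio of Nr4a1 to Nr4a3 was tightest in day 2 meth libraries, at 1.98 ± 0.142, and highest in day 35 saline replicate 9 (3.84), the library in which Nr4a1 was high while Nr4a3 was near its group's lowest. No test was run on these ratios.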
